A study of Homo sapiens with 6 samples.

Results

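The ligands of the tumour necrosis factor (TNF) superfamily and their receptors were followed in REH, a long-established human cell line derived from an acute leukaemia of B-lymphocyte precursors. The members were all genes of the deposited table whose symbol starts with TNFSF or TNFRSF, together with 13 members that carry other names, from TNF and LTA to EDAR and RELT. This gave 46 of 26364 genes, 18 ligands and 28 receptors. One group of 3 libraries came from cells kept for 6 h with the solvent DMSO, and the other 3 came from cells given 50 µM of S3I-201, a compound made to inhibit STAT3, for the same 6 h. The labels name no genotype or other agent, and they place the libraries of a group in independent experiments on this 1 line. Every gene has 1 line in the authors' deposited table, where the 6 bulk RNA libraries are summarised as a mean normalized count and a log2 fold change with its raw and adjusted p. Values of single libraries are therefore given only where they could be worked out from the means.

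Which group is the reference is not stated in the table, whose comparison is named DMSO versus S3I-201. That name does not settle the direction. Positive fold changes are read here as higher with S3I-201, a choice that was not tested. Every direction given below, and the group of each solved library, would turn under the opposite reading. The fold changes appear to have been pulled towards 0 by the authors' software, since genes with 1 read in all had log2 values of only 0.033 to 0.042 in size, so those of weakly counted genes are understated. An implied standard error (SE) was obtained from each log2 value and its p under a normal distribution, and the 95% intervals were made from it. The intervals are therefore centred on the pulled values. For weakly counted genes they lie too near 0 and are too narrow, the implied SE of LTBR with 1 read being only 0.059. A gene was called at an adjusted p below 0.05.

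Ligands of this superfamily are mostly trimeric proteins of the cell surface, some of which are shed, and each binds 1 or a few receptors. Receptors with an intracellular death domain recruit adaptors such as FADD or TRADD and can start apoptosis, whereas most of the others bind TRAF adaptors and activate NF-kB and MAP kinases. Decoy receptors bind ligand without a working death domain. In the B lineage the family is best known for survival signals through the BAFF receptor and CD40, for costimulation of T cells through OX40 ligand, 4-1BB ligand and CD70, and for the killing of target cells through FAS and the TRAIL receptors.

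The 6 libraries held an estimated 6.56 to 14.5 M counted reads (M, mega), with size factors from 0.573 to 1.27, and the shallowest belonged to the group read as S3I-201. Markers of the labelled cell type were present, 10 of 11 B-precursor genes having a mean of at least 10, while VPREB1 was listed at 0. Of T-cell markers 5 of 6 were at 0, with a summed mean of 0.626, both erythroid markers were at 0, and NK markers summed to 16.4. Myeloid markers summed to 1206, of which MPO gave 978, and the stromal list to 40.6, all from COL1A1. On the adjusted p of the authors' DESeq2 0 genes of these lists passed, and 2 of 9 tested B-precursor genes but no other marker had an unadjusted p below 0.05. Of all 11912 tested genes, 1905 had an unadjusted p below 0.05. All 9 tested B-precursor genes had negative log2 values, from -0.31 to -0.06 with a median of -0.18. Among all 11912 tested genes 6387 had negative values, and the median was -0.02. EBF1, the other counted marker of the B-precursor list, had -0.20 at a mean of 2992 and was given no p-value. The means pool both groups, and the part of these cell types in the results was not tested.

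Of the 46 members, 22 had a mean normalized count of at least 10, 13 had a lower mean above 0, and 11 were listed at 0. The 7 ligands at or above 10 were TNF, TNFSF4, LTB, LTA, CD70, TNFSF9 and TNFSF10. The 15 receptors were TNFRSF10B, TNFRSF21, TNFRSF1A, RELT, TNFRSF14, FAS, TNFRSF1B, TNFRSF13C, CD40, TNFRSF10A, TNFRSF18, TNFRSF25, TNFRSF11A, TNFRSF12A and NGFR. These 22 were also the members with an adjusted p. The number that passed in the authors' deposited table was 8, or 36.4% of the 22, against a background of 5.90% of 11912 genes. Higher with S3I-201 were 7, against 4.45% of all tested genes, and 1 was lower, against 1.45%. The median log2 fold change of the 22 members was 0.37, beside -0.02 over all tested genes, and 17 of the 22 values were positive. The 14 members that did not pass had values from -0.25 to 0.46 and adjusted p-values of 0.230 or more. Members of low level were measured less precisely, the median implied SE being 0.26 for genes with means of 10 to 100.

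**Figure D1:**
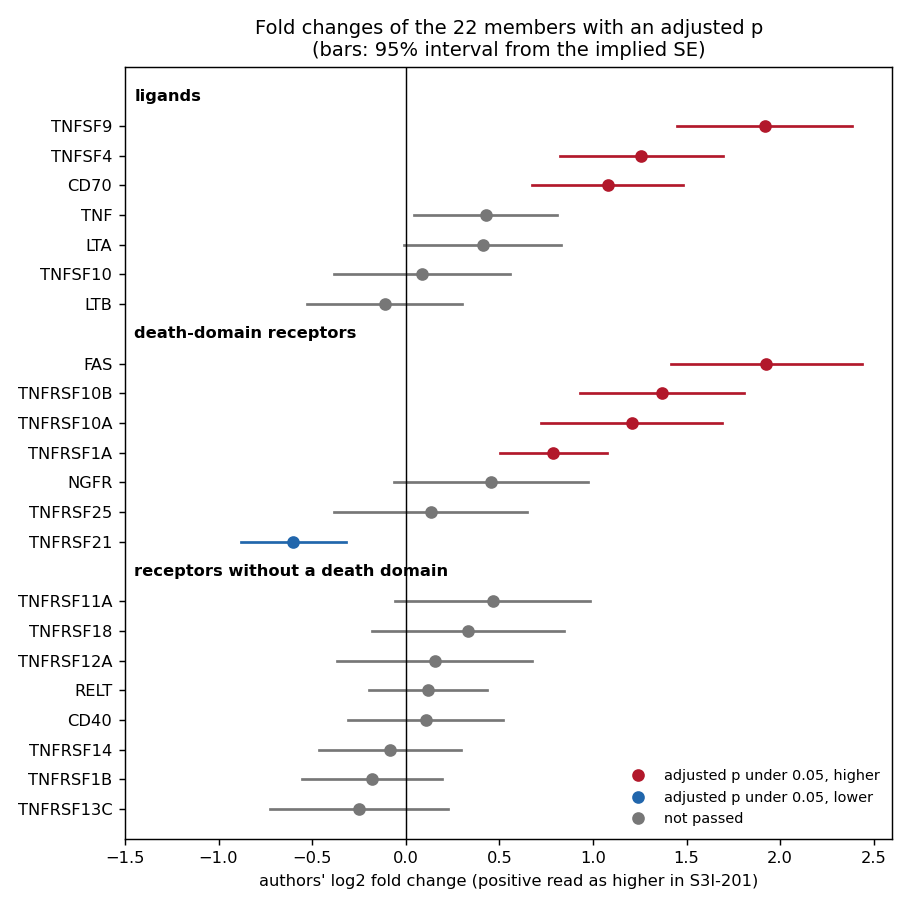
Authors' log2 fold change (x axis, positive read as higher in S3I-201) of the 22 members with an adjusted p, grouped as ligands, death-domain receptors and other receptors; points are the deposited values and bars the 95% interval from the implied SE. The 3 ligands and 4 receptors that passed on the higher side lie between 0.79 and 1.93, TNFRSF21 lies at -0.60, and the 8 receptors without a death domain lie between -0.25 and 0.46.

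Among the ligands, 3 of 7 tested genes rose and 4 did not pass, with a median log2 fold change of 0.43. The share of higher calls over all 11912 tested genes was 4.45%, and their median was -0.02. TNFSF9, the 4-1BB ligand, which costimulates activated T cells, had a mean normalized count of 189 and rose 3.78-fold in the authors' deposited table (log2 fold change 1.92, 95% interval 1.45 to 2.38, adjusted p = 2.37e-13). It ranked 19 by size among the 530 higher calls. TNFSF4, the OX40 ligand, a costimulatory protein of antigen-presenting cells, rose 2.39-fold from the authors' deposited table at a mean of 691 (log2 fold change 1.26, 95% interval 0.82 to 1.69, adjusted p = 1.39e-06). CD70, which binds CD27 on lymphocytes, stood at a mean of 476 and rose 2.11-fold by the authors' deposited table (log2 fold change 1.08, 95% interval 0.68 to 1.48, adjusted p = 1.30e-05).

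TNF, an inflammatory cytokine, had the highest mean of the ligands, 1011, and the authors' deposited table gave it a log2 value of 0.43 (95% interval 0.04 to 0.81) that did not survive adjustment (unadjusted p = 0.0290, adjusted p = 0.230). LTA, lymphotoxin alpha, had 0.41 at a mean of 606 in the authors' deposited table (95% interval -0.01 to 0.83, adjusted p = 0.331). LTB, lymphotoxin beta, which anchors LTA at the membrane, had -0.11 at a mean of 662 there (95% interval -0.53 to 0.30, adjusted p = 0.882). TNFSF10, the death ligand TRAIL, had 0.09 at a mean of 73.8 in the same deposited table (95% interval -0.38 to 0.56, adjusted p = 0.928). The upper bounds of all 4 lie below 1.08, the smallest value of the 3 ligands that rose. That value belongs to CD70, whose interval of 0.68 to 1.48 overlaps those of TNF and LTA. Differences between ligands were not tested.

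Of the 8 receptors with a death domain, 7 were tested, 4 rose, 1 fell and 2 did not pass, and the median log2 fold change was 0.79. Over all 11912 tested genes 4.45% were higher and 1.45% lower, and the median was -0.02. FAS, the receptor of Fas ligand and a direct trigger of apoptosis, rose 3.80-fold at a mean of 148 in the authors' deposited table (log2 fold change 1.93, 95% interval 1.42 to 2.43, adjusted p = 2.66e-11). That placed it at rank 18 of the 530 higher calls, just ahead of TNFSF9. Both death-inducing receptors of TRAIL rose. TNFRSF10B, or DR5, had the highest mean of all members, 1194, and a 2.58-fold rise according to the authors' deposited table (log2 fold change 1.37, 95% interval 0.93 to 1.81, adjusted p = 1.19e-07). Its relative TNFRSF10A, or DR4, had a mean of 73.3, or 27.0 per kb of exon against 288 for TNFRSF10B, and rose 2.31-fold in the authors' deposited table (log2 fold change 1.21, 95% interval 0.72 to 1.69, adjusted p = 7.31e-05). The intervals of the DR4 and DR5 values overlap, and the difference between them was not tested.

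TNFRSF1A, the main TNF receptor, which assembles TRADD and RIPK1, rose 1.73-fold at a mean of 866 in the authors' deposited table (log2 fold change 0.79, 95% interval 0.50 to 1.07, adjusted p = 5.48e-06). TNFRSF21, or DR6, a death-domain receptor best known from neurons and from T- and B-cell responses, was the only member to fall, by 34.0% at a mean of 1089 in the authors' deposited table (log2 fold change -0.60, 95% interval -0.88 to -0.32, adjusted p = 0.00116). It ranked 91 by size among the 173 lower calls. The authors' deposited table gave the weakly counted NGFR, the p75 neurotrophin receptor, 0.46 at a mean of 13.2 (adjusted p = 0.423) and TNFRSF25, or DR3, 0.13 at a mean of 18.8 (adjusted p = 0.894), and neither passed. EDAR, the receptor of ectodysplasin, was listed at 0.

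**Figure D2:**
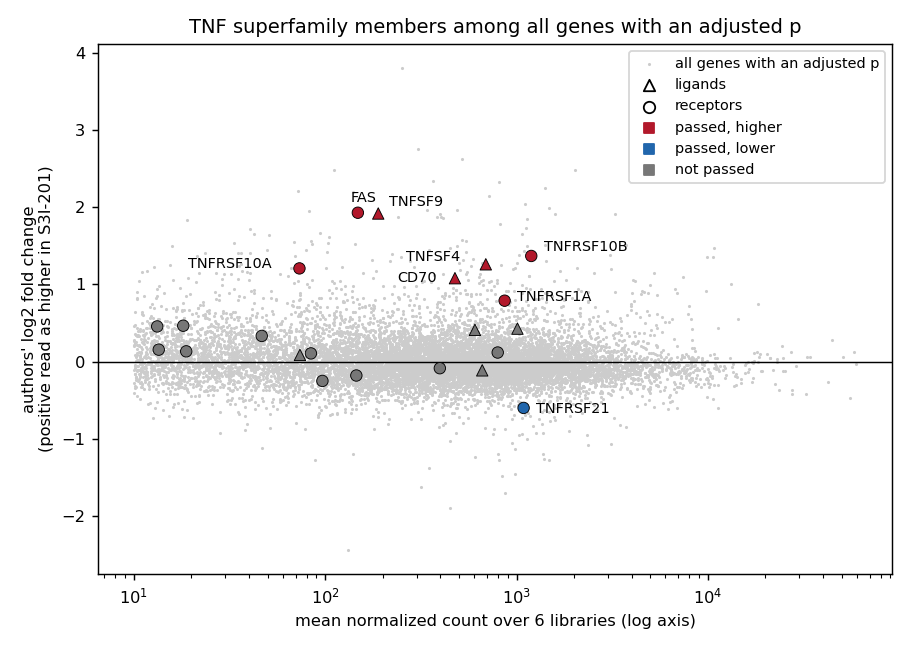
Authors' log2 fold change (y axis) against the mean normalized count over the 6 libraries (x axis, log scale) for the 11912 genes with an adjusted p in light grey, with member ligands as triangles and member receptors as circles. The 7 higher members lie between means of 73.3 and 1194, FAS and TNFSF9 lie highest of the family, and TNFRSF21 is the 1 called member below 0.

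Of the 8 tested receptors without a death domain 0 passed on the adjusted p that the authors took from DESeq2, a count near the background share of 5.90%. Likewise 0 had an unadjusted p below 0.05, against 1905 of all 11912 tested genes, and the median log2 fold change of these receptors was 0.11. RELT, a TRAF-binding receptor of lymphoid tissue, had the narrowest interval of them, at 0.12 on the log2 scale with a mean of 797 in the authors' deposited table (95% interval -0.20 to 0.43). TNFRSF14, the receptor HVEM of lymphocytes, had -0.09 at a mean of 397 in the authors' deposited table (95% interval -0.46 to 0.29). TNFRSF1B, the second TNF receptor, which lacks a death domain, had -0.18 at a mean of 145 (95% interval -0.55 to 0.19), while the deposited value of TNFRSF1A lay above the upper end of that interval. The difference between both TNF receptors was not tested.

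The receptors with B-cell functions in this group were modestly counted. CD40, which receives T-cell help, had 0.11 at a mean of 84.2 in the authors' deposited table (95% interval -0.31 to 0.52, adjusted p = 0.895). TNFRSF13C, the BAFF receptor, had -0.25 at a mean of 96.7 there (95% interval -0.73 to 0.23, adjusted p = 0.712). TNFRSF18, or GITR, had 0.33 at a mean of 46.6, TNFRSF11A, or RANK, 0.46 at 18.1 and TNFRSF12A, the TWEAK receptor FN14, 0.15 at 13.5 in the authors' deposited table. The split by death domain was made with the results known, and whether receptors with and without the domain differ in their response was not tested.

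To show what lies upstream of the called members, of which TNFRSF21 fell and the others printed here rose, the 250 bases before the transcription start were taken for the 5 called genes that have an entry in the RefSeq promoter table (GRCh38.p14, each read 5′ to 3′ on the strand of the gene). The part of each window before any untranslated region of GENCODE 29 is printed. These stretches lie at chr10:88990548-88990581 on the plus strand for FAS, chr19:6530776-6530998 on the plus strand for TNFSF9, chr1:173205559-173205782 on the minus strand for TNFSF4, chr12:6342115-6342326 on the minus strand for TNFRSF1A and chr6:47309906-47310155 on the minus strand for TNFRSF21. The stretch of TNFSF4 lies inside its GENCODE gene, since the RefSeq start is further downstream. FAS has 3 starts in the promoter table, and the window before the most upstream of them was used. Capitals mark each match, on either strand, to AP-1 (TGANTCA), ATF4 (TGATGNAA), CRE (TGACGTCA), NRF2 (TGACNNNGC), E-box (CACGTG), GC-box (GGGCGG) or the kappaB motif.
FAS: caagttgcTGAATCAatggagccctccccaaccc
TNFSF9: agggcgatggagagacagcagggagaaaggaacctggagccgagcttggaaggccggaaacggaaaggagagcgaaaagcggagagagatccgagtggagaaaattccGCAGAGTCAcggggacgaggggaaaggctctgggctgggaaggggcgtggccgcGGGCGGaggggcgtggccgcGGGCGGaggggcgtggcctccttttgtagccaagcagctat
TNFSF4: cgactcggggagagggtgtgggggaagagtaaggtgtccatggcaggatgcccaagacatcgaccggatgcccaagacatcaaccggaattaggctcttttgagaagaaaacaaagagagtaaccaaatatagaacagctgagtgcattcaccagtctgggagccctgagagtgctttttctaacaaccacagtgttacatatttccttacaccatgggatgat
TNFRSF1A: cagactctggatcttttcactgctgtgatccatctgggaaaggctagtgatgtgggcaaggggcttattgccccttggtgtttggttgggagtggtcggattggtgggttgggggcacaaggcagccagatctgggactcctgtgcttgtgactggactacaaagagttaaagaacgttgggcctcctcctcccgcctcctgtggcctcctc
TNFRSF21: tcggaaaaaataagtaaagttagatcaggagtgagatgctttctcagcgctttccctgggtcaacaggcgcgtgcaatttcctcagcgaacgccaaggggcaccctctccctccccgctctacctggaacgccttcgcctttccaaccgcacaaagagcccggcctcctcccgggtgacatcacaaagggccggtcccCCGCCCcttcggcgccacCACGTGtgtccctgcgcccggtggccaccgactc

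The full FAS window of 250 bases holds the AP-1 match printed above and, beyond the printed stretch, 1 kappaB match, 1 NRF2 match and 1 GC-box. The TNFSF9 window has 1 NRF2 match on the minus strand and 2 GC-boxes. No match to any of the 7 motifs was found in the windows of TNFSF4 and TNFRSF1A, and TNFRSF21 has 1 E-box and 1 GC-box. Over all 35116 windows of that table, AP-1 is found in 6.57%, ATF4 in 3.14%, CRE in 1.65%, kappaB in 5.07%, NRF2 in 10.9%, E-box in 6.34% and GC-box in 42.6%. Entries were found for 15 of the 22 tested members. These 15 genes have 20 windows, of which 1 held AP-1, 4 kappaB, 3 NRF2, 1 the E-box, 12 the GC-box, and 0 ATF4 or CRE. Windows of the same gene can overlap and count a site again, as with the NRF2 match and a GC-box of FAS. By gene, AP-1 matched in FAS, kappaB in FAS, LTA and LTB, NRF2 in FAS and TNFSF9, the E-box in TNFRSF21 and the GC-box in 10 genes. No motif of the 7 was found in all 5 windows, and a match says only that the letters are present.

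Levels were compared between genes per length, as the mean normalized count per kb of exon in GENCODE 29. LTB had the highest level per kb of the family, 736, followed by TNF with 603, CD70 with 394 and LTA with 367. The most abundant receptors per kb were TNFRSF21 with 303, TNFRSF1A with 291 and TNFRSF10B with 288, then RELT with 213 and TNFRSF14 with 206. TNFSF4 followed at 186 per kb and TNFSF9 at 114. The remaining tested members ranged from 2.21 per kb for TNFRSF11A to 57.4 for FAS. No spread between libraries is given for these means, so neighbours as close as TNFRSF21, TNFRSF1A and TNFRSF10B cannot be ordered.

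Ligands were set beside the receptors that bind them. Of 31 ligand-receptor pairs known from textbooks, 7 had both genes at a mean of at least 10, 7 only the ligand, 8 only the receptor and 9 neither. The 3 ligands that rose had receptors that were hardly counted. The receptor of TNFSF9, TNFRSF9, was listed at 0, that of TNFSF4, TNFRSF4, had a mean of 1.83, and that of CD70, CD27, one of 0.850 in the authors' deposited table. LTB, the highest ligand per kb, faced LTBR at a mean of 0.140, which is 1 read in 1 library. Conversely FAS rose while FASLG was listed at 0, and CD40 was counted while CD40LG was listed at 0. Both genes could be called only in the 7 pairs in which each had an adjusted p, and the ligands of those pairs, TNF, LTA and TNFSF10, did not pass.

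The pairs with both genes counted were those of TNF and LTA with TNFRSF1A and TNFRSF1B, LTA with TNFRSF14, and TNFSF10 with TNFRSF10A and TNFRSF10B. TNFSF10 stood at 37.8 per kb, near TNFRSF10A at 27.0 and below TNFRSF10B at 288. In bulk RNA fewer cells that express a gene and less of its RNA per cell cannot be told apart. Ligands and receptors supplied by other cells are outside these libraries.

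**Figure D3:**
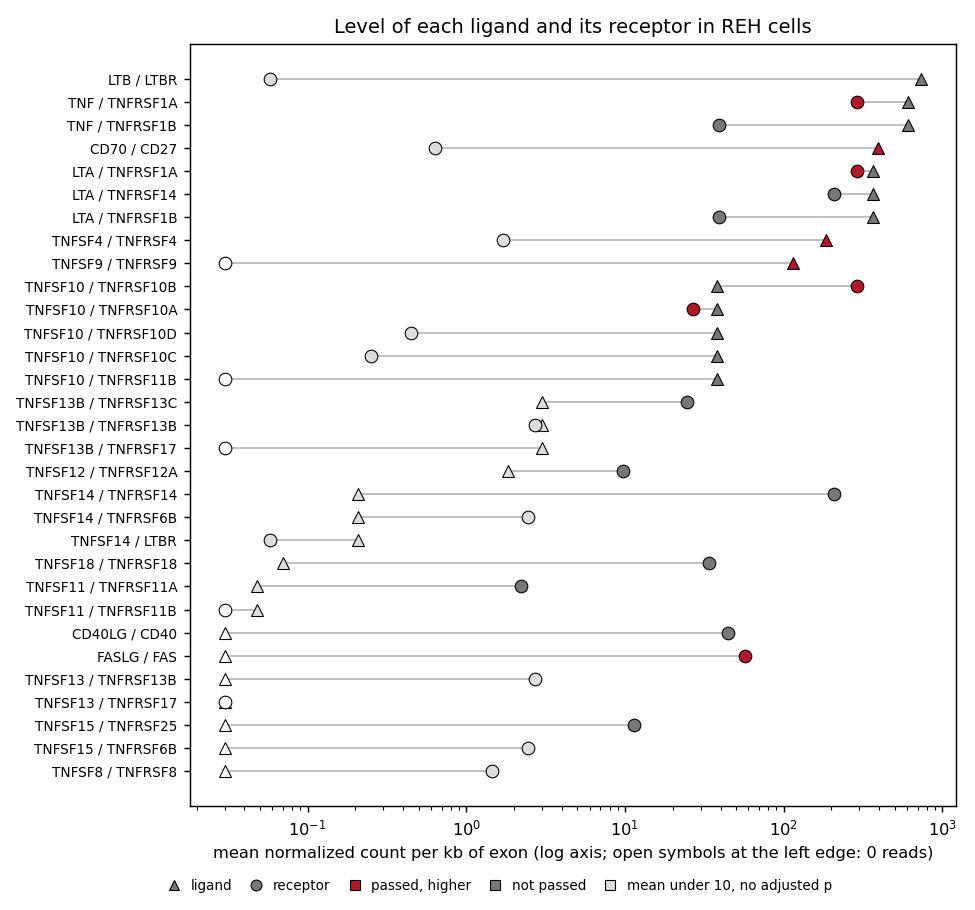
Mean normalized count per kb of exon (x axis, log scale) of each ligand (triangle) and a receptor that binds it (circle) for 31 pairs, coloured by the call; open symbols at the left edge were listed at 0. The red triangles of CD70, TNFSF4 and TNFSF9 lie at 114 to 394 per kb, while their receptors lie at 1.71 per kb or less.

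For members below a mean of 10 the whole reads of each library could be worked out, because such a mean is a sum of whole reads divided by 6 size factors, which the means of genes with 1 read reveal. For 5058 of 5063 genes in this range exactly 1 set of reads gave the deposited mean, and in 98.2% of the solved genes the sign of the difference equalled that of the deposited fold change. The libraries were assigned to groups by the sign of the fold change of genes with 1 read and are not tied to replicate numbers. Genes with 1 read are among the solved genes and agree in sign by this assignment. All 13 members in this range were solved, with 1 to 49 reads over the 6 libraries. On the p-value of the authors' DESeq2, 0 of the 13 were below 0.05 before adjustment, the smallest being 0.135 for TNFRSF10D. The share below 0.05 among all genes of this range was not worked out, and 7 of the 13 had 6 reads or fewer. This count therefore says little about the members. The S3I-201 libraries are given in the order of estimated totals of 14.5, 13.6 and 6.56 M reads, and the DMSO libraries in the order of 14.1, 11.6 and 10.9 M.

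TNFSF13B, the survival factor BAFF, was the best counted of these members. It had 9, 17 and 6 reads in the S3I-201 libraries and 7, 3 and 7 in the DMSO libraries. Divided by the size factors these were 7.09, 14.3 and 10.5 against 5.67, 2.95 and 7.38, so the groups overlapped, with a ratio of means of 1.99 (unadjusted p = 0.189 in the authors' deposited table). TNFRSF8, or CD30, a receptor of activated lymphocytes, had 9, 3 and 3 reads with S3I-201 and 7, 8 and 4 with DMSO. TNFRSF13B, the receptor TACI of BAFF and APRIL, had 1, 5 and 1 against 13, 5 and 2 reads, and the DMSO library of 14.1 M held 13 of its 27 reads. TNFSF12, the ligand TWEAK, had 1, 1 and 2 reads with S3I-201 and 5, 7 and 1 with DMSO. In each of these genes the groups overlapped.

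The other low members had 17 reads or fewer. TNFRSF4, or OX40, had 3, 3 and 2 reads with S3I-201 and 2, 1 and 0 with DMSO, and TNFSF14, the ligand LIGHT, had 2, 2 and 1 against 0, 1 and 0. In these 2 of 13 members, or 15.4%, the normalized values of the groups did not overlap, against 7.32% of 5058 solved genes, and the authors' deposited table gave unadjusted p-values of 0.312 and 0.320 for them. The T-cell and memory B-cell receptor CD27 had 0 reads in each S3I-201 library and 5, 0 and 1 with DMSO. The decoy receptor TNFRSF10D of TRAIL had 1, 0 and 5 reads with S3I-201, 5 of them in the shallowest library, and 0 in each DMSO library. Its relative TNFRSF10C had 1, 0 and 0 against 1, 1 and 0. The soluble decoy TNFRSF6B had 1, 0 and 2 against 8, 4 and 2. LTBR and TNFSF18, the GITR ligand, had 1 read each in the same S3I-201 library, and TNFSF11, or RANKL, 1 read in another. None of these genes had an unadjusted p below 0.05 from the authors' DESeq2. How large a difference so few reads could show was not worked out.

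**Figure D4:**
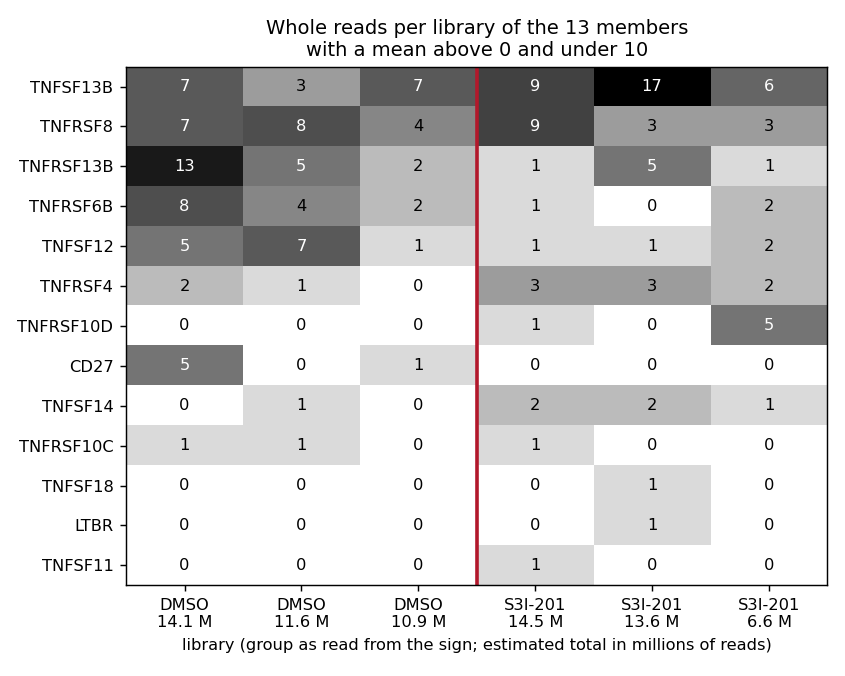
Whole reads in each library (columns, 3 read as DMSO and 3 as S3I-201, with the estimated library total in M reads) for the 13 members with a mean above 0 and under 10 (rows); darker cells hold more reads. TNFSF13B leads with 49 reads in all, and 3 members rest on 1 read.

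The 11 members listed at 0 were the ligands FASLG, CD40LG, TNFSF8, TNFSF13, TNFSF15 and the readthrough gene TNFSF12-TNFSF13, and the receptors EDAR, TNFRSF9, TNFRSF11B, TNFRSF17 and TNFRSF19. A total of 0 reads allows for up to 3, which is a mean normalized count of up to 0.394 to 0.873 depending on the library; this limit covers counting error only. For some low members the gene models matter. The readthrough gene covers 55.5% of the exon bases of TNFSF13 and 35.6% of those of TNFSF12, and RTEL1-TNFRSF6B covers 100% of TNFRSF6B in GENCODE 29. How reads shared by overlapping genes were counted is not given in the sources used here, so the values of these genes are uncertain. CD27-AS1, on the opposite strand, shares 39.0% of the exon bases of CD27 and had a mean of 158, and the libraries do not mark the strand. The same holds for antisense genes over 20.1% of the exon bases of RELT and 19.3% of TNFRSF14. Among the called members, RHOBTB2 covered 1.62% of TNFRSF10B from the opposite strand. TNFRSF10A was overlapped from its opposite strand by TNFRSF10A-AS1 over 8.25% and by AC100861.1 over 5.01% of its exon bases.

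Several members are neighbours in the genome (hg38, GENCODE 29). Some neighbours had the same call and others did not. TNFSF9 (chr19:6530999-6535928) and CD70 (chr19:6583183-6604103) lie 47.3 kb apart and both rose, while TNFSF14, 57.1 kb beyond CD70, had 6 reads in all. TNFSF4 (chr1:173183734-173207313) rose, and its neighbour TNFSF18 at 133 kb had 1 read. TNFRSF1A (chr12:6328757-6342114) rose, while LTBR, 32.9 kb away, had 1 read and CD27, 53.3 kb further, had 6. LTA, TNF and LTB lie within a few kb of each other on chromosome 6, from 31572054 to 31582522, all were well counted and 0 of the 3 passed. FAS lies at chr10:88990582-89015785 and TNFRSF21 at chr6:47231532-47309905, both with no other member within 200 kb.

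The TRAIL receptor cluster on chromosome 8 also held called and barely counted members. TNFRSF10B (from 23020133 to 23069179) and TNFRSF10A (from 23190452 to 23225126) carry death domains and rose, at means of 1194 and 73.3. Between them lie the decoys TNFRSF10C and TNFRSF10D, with 3 and 6 reads over the 6 libraries. TNFRSF11B, osteoprotegerin, a soluble decoy that also binds TRAIL and lies elsewhere on that chromosome, was listed at 0.

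A list of genes that act below the receptors, with some related genes, passed at a share near the background. Of 59 adaptors, kinases, ubiquitin-modifying proteins, caspases and related genes, 56 had an adjusted p, and 1 rose and 4 fell in the authors' deposited table. That is 8.93% called, beside the background of 5.90%, and the median log2 fold change was 0.02. The list also holds 9 related genes that were not classed as adaptors, kinases, ubiquitin-modifying proteins or cell-death genes. Of these, 8 were tested and 2 passed, TNFAIP8L1 and LITAF. Some of the 9 do not act below the receptors, among them the ligand EDA and the shedding proteases ADAM10 and ADAM17, which did not pass. Another is the receptor EDA2R, which had no adjusted p. TNFAIP8L1, a relative of the apoptosis regulator TNFAIP8, had -0.74 (95% interval -1.09 to -0.40, adjusted p = 0.00108), and the adaptor TRAF5 had -0.65 in the authors' deposited table (95% interval -1.04 to -0.26, adjusted p = 0.0244). MAP3K5, the stress kinase ASK1, fell as well, at -0.53 in the authors' deposited table (95% interval -0.84 to -0.22, adjusted p = 0.0197). TNFAIP3, the ubiquitin-editing inhibitor A20, had -0.44 at a mean of 4550 by the authors' deposited table (adjusted p = 0.0335), and its call was lost when the trend with abundance was removed, at a value of -0.37 (adjusted p = 0.107). LITAF, an endosomal protein induced by lipopolysaccharide, was the gene that rose, with 0.57 in the authors' deposited table (adjusted p = 0.0256).

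Among the 8 tested genes of caspase activation and cell death, 0 passed on the authors' DESeq2 adjusted p and 2 had an unadjusted p below 0.05. Over all 11912 tested genes, 1905 had an unadjusted p below 0.05. The scaffold proteins TANK with 0.51 (adjusted p = 0.137) and TNIP1 with 0.30 (adjusted p = 0.167) were the genes nearest to the threshold, by the authors' deposited table, that missed it. Named after their values were seen, the 3 genes of the list without an adjusted p were RIPK3, CASP10 and EDA2R. RIPK3, the kinase of necroptosis, was listed at 0, CASP10 had a mean of 6.12 and the receptor EDA2R 1.95.

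**Figure D5:**
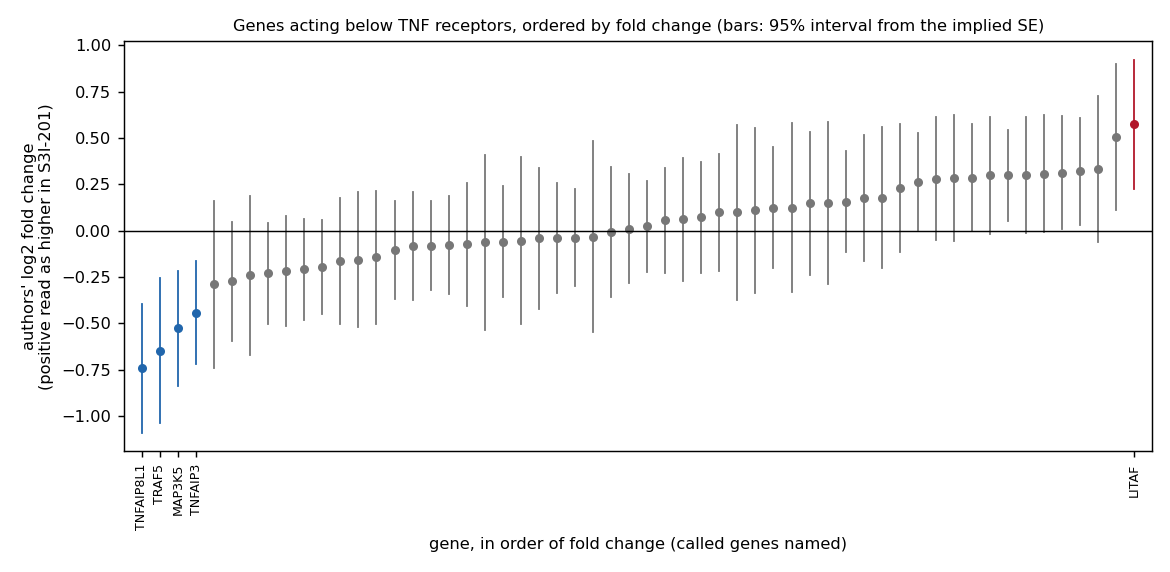
Authors' log2 fold change (y axis) of the 56 tested genes of the signalling list, most of which act below TNF receptors. Genes are ordered by value along the x axis with the called genes named, and bars are 95% intervals from the implied SE. TNFAIP8L1, TRAF5, MAP3K5 and TNFAIP3 at the left end and LITAF at the right end are the 5 called genes.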

How the data were processed

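RNA of REH cells was sequenced after 6 h in DMSO or S3I-201 (50 µM), 3 libraries per group, per the labels' protocols. The submitters' processing notes name bcl2fastq 2.19, Trimmomatic, Bowtie2, Picard, featureCounts, DESeq2 and hg38, with no role or order; the annotation and the model are not given in the sources used here. Libraries followed the TruSeq RNA v2 protocol, which does not mark the strand. The mean normalized count is a signal that the authors averaged over the libraries after scaling by size factors, as the deposited column names show. The authors also deposited a log2 fold change and a p-value, raw and adjusted.

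From these, python 3.11.15 with numpy 2.4.6, pandas 2.3.3 and scipy 1.17.1 gave the implied SE, its 95% interval, whole reads per library below a mean of 10, levels per kb of exon (GENCODE 29), and motif matches. Since the values are pooled, the planned fit to counts was replaced, and the authors' adjusted p, taken over all 11912 genes, decided each call, at 0.05. All members with a mean of at least 10 were named; of the signalling list, those called and then the smallest adjusted p up to 8, of which 1 is not reported here. Members, lists, pairs and motifs were chosen with earlier results of these data known. The solver and the adjustment were tested on simulated data. Alternatives were thresholds of 0.01 and 0.1, adjustment over 16974 genes with a p-value or over means of at least 100, a minimum log2 fold change of 0.5, and subtraction of each abundance bin's median (20 bins).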

Additional observations from a re-analysis of the deposited data

How the results depend on the processing

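The 8 member calls, 7 higher and 1 lower, kept that number at thresholds of 0.01 and 0.1, when the 16974 genes with a p-value were adjusted together, with the abundance trend removed and with a minimum log2 fold change of 0.5. With adjustment over genes with a mean of at least 100 there were 7, since TNFRSF10A at a mean of 73.3 was not in that test. Removal of the trend changed the sign of 0 of the 22 tested members and moved called members by -0.01 to 0.05. Of the 5 signalling calls 1 was left at a threshold of 0.01, and 4 with the trend removed. No paired analysis was possible because the deposited values pool the libraries and are not tied to replicate numbers. For the same reason another normalization, leaving out replicates and unshrunken fold changes were not run for members with an adjusted p. Depth limits the members below a mean of 10, for which only changes far larger than their reads' spread could show.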
